A study of Homo sapiens with 8 samples.

Results

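The messenger RNAs of 10 genes of B cell receptor signalling were examined in LP-1, an established human multiple myeloma cell line, after exposure to 2 bromodomain inhibitors. The genes were CD79A and CD79B (the signalling chains of the receptor), the kinases LYN, SYK, ZAP70 and BTK, the adaptor BLNK, the phospholipase PLCG2 and the phosphatases PTPN6 and INPP5D. They were chosen by symbol, with PTPN6 and ZAP70 put first because of their responses in these libraries, so their differences between compound and DMSO are given as a description and carry no test. All 10 were found among 63102 gene rows, and 5 of them (CD79B, LYN, BLNK, PLCG2 and PTPN6) averaged at least 1 RPKM (reads per kilobase of transcript, corrected for sequencing depth) over the 8 libraries and so were among the 14732 genes tested. The other 5 (CD79A, SYK, ZAP70, BTK and INPP5D) stayed under that mean.

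The 8 libraries formed 4 groups of 2 biological replicates, all taken after 6 hr. LP-1 cells received SGC-CBP30 at 2.5 μM, an inhibitor of the bromodomains of the acetyltransferases CBP and EP300, or CPI203 at 0.25 μM, an inhibitor of the BET family of bromodomain proteins. Each compound had its own pair of libraries from cells given DMSO, the solvent, assigned by the naming series of the libraries. The 2 naming series are called experiments here, a name that the labels do not give. The compound, its dose and the experiment change together between the treated groups, so the compounds are set side by side at doses that differ.

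The depth, estimated from the steps between low RPKM values, was 26100000 to 49600000 reads per library. Among genes with at least 10 RPKM, the SD of the log2 difference was 0.0846 to 0.11 between replicates of a group and 0.271 to 0.316 between DMSO libraries of the separate experiments. All 7 plasma cell markers checked were at 1 RPKM or more in every group, with summed levels of 1008.6 to 1061.3 RPKM in the DMSO libraries of SGC-CBP30, 824.6 to 845.0 with SGC-CBP30, 1090.6 to 1104.3 in the DMSO libraries of CPI203 and 626.6 to 639.1 with CPI203. Of 8 B cell markers, CR2 alone reached a group mean of 1 RPKM, and PAX5 and FCER2 were at 0 in every library. The 8 myeloid markers summed to at most 0.423 RPKM in any library.

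In a B cell, antigen binding to surface immunoglobulin brings the SRC family kinase LYN to the paired chains CD79A and CD79B, whose phosphorylated tails recruit SYK. SYK and BTK act with the adaptor BLNK on PLCG2, whose activity yields diacylglycerol and leads to a release of calcium, both second messengers. PTPN6 (SHP-1) and INPP5D (SHIP1) oppose the signal by removing phosphate from proteins and from a membrane lipid. ZAP70 is the relative of SYK that serves the T cell receptor, and plasma cells in general carry less surface receptor than the B cells from which they come.

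For orientation, the 250 bases before annotated starts are shown for the 4 members with at least a 2-fold difference of group means with a compound and 1 RPKM or more in a group. They are RefSeq sequences on build GRCh38.p14, written 5′ to 3′ on the strand of the gene. The windows lie at chr12:6946327-6946576 (+ strand) and chr12:6951106-6951355 (+ strand) for PTPN6, which has 2 annotated starts, at chr2:97713326-97713575 (+ strand) for the first of 3 starts of ZAP70, at chr10:96271570-96271819 (- strand) for BLNK, and at chr16:81738791-81739040 (+ strand) for PLCG2. Capitals mark GGAAGT, the core read by many ETS family factors, or the E-box CACGTG, on either strand.
PTPN6, first start: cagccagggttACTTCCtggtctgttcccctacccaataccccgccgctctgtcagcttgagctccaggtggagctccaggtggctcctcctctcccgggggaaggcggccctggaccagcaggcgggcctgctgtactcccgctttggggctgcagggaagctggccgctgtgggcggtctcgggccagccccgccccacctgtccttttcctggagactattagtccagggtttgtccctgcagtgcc
PTPN6, second start: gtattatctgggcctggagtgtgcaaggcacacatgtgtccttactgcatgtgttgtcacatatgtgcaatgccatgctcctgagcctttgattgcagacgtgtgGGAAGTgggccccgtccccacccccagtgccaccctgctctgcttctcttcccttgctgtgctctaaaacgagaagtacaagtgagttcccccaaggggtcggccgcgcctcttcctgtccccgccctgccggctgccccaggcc
ZAP70, first start: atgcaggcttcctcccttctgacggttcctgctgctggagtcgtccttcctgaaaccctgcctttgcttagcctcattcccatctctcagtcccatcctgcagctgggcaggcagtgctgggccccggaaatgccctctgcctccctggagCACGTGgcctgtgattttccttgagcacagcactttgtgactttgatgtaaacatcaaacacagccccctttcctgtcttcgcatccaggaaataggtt
BLNK: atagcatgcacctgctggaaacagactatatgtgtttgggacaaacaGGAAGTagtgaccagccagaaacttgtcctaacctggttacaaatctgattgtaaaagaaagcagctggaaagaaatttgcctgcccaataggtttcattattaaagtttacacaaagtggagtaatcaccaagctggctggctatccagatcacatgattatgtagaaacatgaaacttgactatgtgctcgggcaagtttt
PLCG2: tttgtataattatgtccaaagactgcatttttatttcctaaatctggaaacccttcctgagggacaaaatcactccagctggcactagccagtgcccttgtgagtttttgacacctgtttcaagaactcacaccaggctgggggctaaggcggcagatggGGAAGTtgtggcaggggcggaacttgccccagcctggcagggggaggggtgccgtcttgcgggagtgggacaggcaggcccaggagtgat

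Windows were found for 8 of the 10 members, not for CD79B and LYN, and came to 14. The 7 motifs given here were searched in these windows, on both strands. GGAAGT occurred in 8 of the 14 windows, from 7 of the 8 genes, and in 19.5% of all 35116 windows of the same length. The E-box CACGTG occurred in 1, in ZAP70 at 99 bases before its first start, beside 6.34% of all windows. The longer GAGGAAGT, which contains GGAAGT and is the box of the factor PU.1, occurred in 3, in BTK, SYK and INPP5D, beside 2.17%. The GC box GGGCGG occurred in 7, beside 42.6%. The ETS-IRF composite element occurred in 1, in INPP5D, beside 2.41%. The interferon-stimulated response element (3.02% of all windows) and the octamer ATGCAAAT (1.63%) had no match in the 14. These are matches of letters and are not sites of binding. The motifs were chosen after the expression values were seen, and the share of all genes with a match was not counted. Nothing is read from the counts.

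CD79B, the receptor chain that LP-1 expressed, was lower with both compounds. With SGC-CBP30 it was at 17.2 and 16.3 RPKM, against 22.1 and 23.6 with DMSO. In the other experiment CD79B stood at 24.8 and 24.4 RPKM with DMSO and at 13.0 and 13.7 with CPI203. Both treated libraries lay below both of their DMSO libraries in each experiment, and the CPI203 pair lay below the SGC-CBP30 pair. The group mean was 73.3% of DMSO with SGC-CBP30 and 54.3% with CPI203. The log2 fold change, on the scale of log2(RPKM + 0.1) used for every fitted value here, was -0.45 (SE 0.0585) with SGC-CBP30 and -0.88 (SE 0.0585) with CPI203. Between the 2 DMSO pairs the log2 difference was 0.11 (SE 0.0585).

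CD79A, its obligate partner, was almost absent. Its 8 values ran from 0.0231 to 0.204 RPKM, about 1 to 12 reads per library by the estimated depth. CD79B stood at 80.0 to 957.3 times the level of CD79A per length, a range set by the few CD79A reads. No order of the groups can be read at this depth, since the 2 libraries of the DMSO group of SGC-CBP30 alone spanned 0.0231 to 0.138 RPKM.

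**Figure D1:**
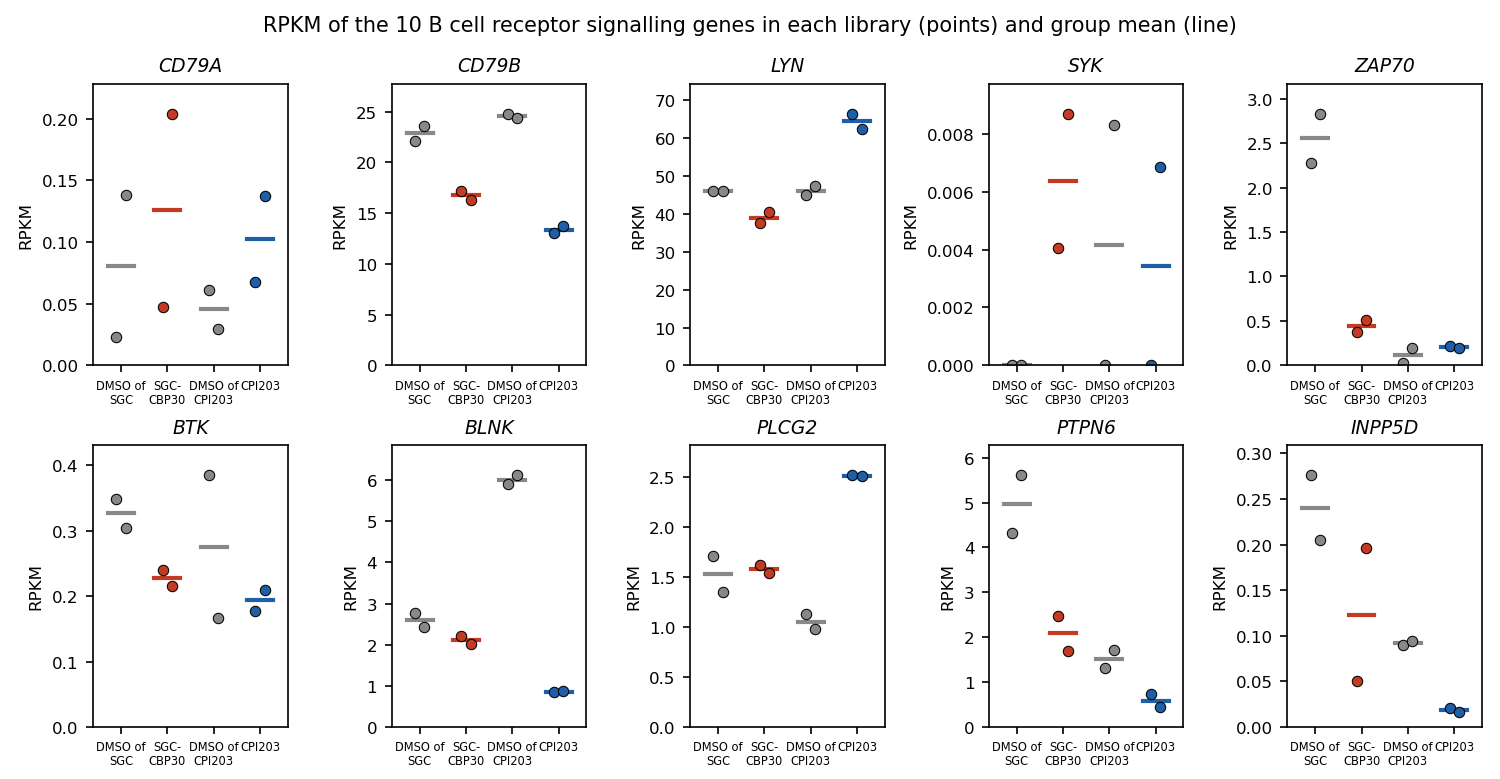
Level of each of the 10 genes in RPKM (vertical axis, from 0, a separate scale per gene) in the 4 groups (horizontal axis). Points are the 2 libraries of a group and the line is their mean. PTPN6 is lower with each compound than with its own DMSO, ZAP70 exceeds 1 RPKM in the DMSO libraries of SGC-CBP30 and in no other group, and SYK is near 0 throughout.

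LYN was the most abundant of the 10 genes per length, and the compounds left it on opposite sides of DMSO. With SGC-CBP30 it was at 37.6 and 40.4 RPKM against 46.2 and 46.2 with DMSO, a mean of 84.4% of DMSO. With CPI203 it was at 66.5 and 62.4 RPKM against 45.1 and 47.3 with DMSO, a mean of 139.6% of DMSO. Neither experiment had overlap between treated and DMSO libraries, and the DMSO means were equal at 46.2 RPKM. The log2 fold changes were -0.24 (SE 0.0505) and 0.48 (SE 0.0505), each under 1.5-fold, and the range over all alternative settings was -0.32 to -0.19 with SGC-CBP30 and 0.44 to 0.53 with CPI203.

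SYK, the kinase that the phosphorylated receptor recruits in B cells, was listed at 0 in 4 of the 8 libraries and at no more than 0.00869 RPKM in any, which is about 2 reads. BTK, the TEC family kinase that acts on PLCG2, lay between 0.166 and 0.385 RPKM. BTK was at 0.349 and 0.304 RPKM with DMSO against 0.24 and 0.215 with SGC-CBP30, without overlap, whereas the DMSO libraries of CPI203, at 0.385 and 0.166, enclosed the CPI203 libraries at 0.178 and 0.209. BTK rests on about 12 to 33 reads per library.

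ZAP70 was the member with the greatest difference with SGC-CBP30, and also the member whose DMSO libraries differed most between experiments. Its gene spans chr2:98330023-98356325 on build hg19. The DMSO libraries of SGC-CBP30 held 2.28 and 2.83 RPKM and the treated ones 0.378 and 0.51, a mean of 17.4% of DMSO. The CPI203 experiment gave 0.0284 and 0.195 RPKM with DMSO and 0.221 and 0.198 with CPI203. Both SGC-CBP30 libraries were thus below their own DMSO and above all 4 libraries of the CPI203 experiment. Fitted without the minimum of 1 RPKM, the log2 fold change was -2.29 (SE 0.425) with SGC-CBP30 and 0.67 (SE 0.425) with CPI203. The values correspond to about 191 and 232 reads in the DMSO libraries of SGC-CBP30, 46 and 58 with the compound, and 2 to 14 in the libraries of the CPI203 experiment, where the depth allowed no order to be set.

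The mean of ZAP70 in the DMSO libraries of CPI203, 0.112 RPKM, was 4.38% of that in the DMSO libraries of SGC-CBP30, 2.56 RPKM. ZAP70 is a known gene of T and NK cells, and the markers of those cells are given beside it. None of the 10 reached a group mean of 1 RPKM, and their sum was 0.918 to 1.0 RPKM in the DMSO libraries of SGC-CBP30, 0.529 to 0.743 with SGC-CBP30, 2.0 to 2.12 in the DMSO libraries of CPI203 and 1.36 to 1.87 with CPI203. CD3D was at 0 in all 4 libraries of the SGC-CBP30 experiment and between 0.375 and 0.499 RPKM in those of CPI203. In the DMSO libraries of CPI203, 4 markers (CD2, CD3D, CD3E and CD3G) lay above both DMSO libraries of SGC-CBP30, NKG7 lay below them, and 5 overlapped or were at 0. The part of such cells in the level of ZAP70 was not tested. In bulk RNA, fewer cells with a transcript and less transcript per cell cannot be told apart.

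BLNK, the adaptor that brings BTK and PLCG2 together, was the member with the greatest difference with CPI203. Its gene spans chr10:97951458-98031344 on build hg19. With CPI203 it was at 0.837 and 0.879 RPKM against 5.9 and 6.12 with DMSO, a mean of 14.3% of DMSO. With SGC-CBP30 it was at 2.22 and 2.02 RPKM against 2.76 and 2.42 with DMSO, a mean of 81.8%. The libraries did not overlap in either experiment. The log2 fold change was -2.67 (SE 0.132) with CPI203 and -0.28 (SE 0.132) with SGC-CBP30. It ranged from -2.71 to -1.92 with CPI203 over all alternative settings, and from -0.87 to -0.19 with SGC-CBP30.

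The DMSO level of BLNK differed between the experiments, with a mean of 6.01 RPKM for CPI203 and 2.59 for SGC-CBP30, a log2 difference of 1.19 (SE 0.132), higher in both libraries than in both of the other pair. The CPI203 libraries remained below both DMSO pairs. The row of BLNK overlaps that of ZNF518A, which had group means of 9.75 RPKM with DMSO and 13.3 with SGC-CBP30, and of 12.7 with DMSO and 17.7 with CPI203, so its mean was higher with each compound than with DMSO, the opposite side from BLNK. How the authors divided reads of overlapping genes is uncertain, and its part in the value of BLNK was not tested.

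PLCG2, the phospholipase of the pathway, was higher with CPI203. It was at 2.52 and 2.51 RPKM with CPI203 against 1.13 and 0.98 with DMSO, a mean of 238.3% of DMSO and a log2 fold change of 1.18 (SE 0.17). With SGC-CBP30 it was at 1.62 and 1.54 RPKM, inside the range of its DMSO libraries at 1.71 and 1.35, with a log2 fold change of 0.05 (SE 0.17). Between the DMSO pairs the log2 difference was -0.49 (SE 0.17). The CPI203 libraries exceeded all 4 DMSO libraries.

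PTPN6, the phosphatase that dampens receptor signals, was lower with both compounds by a like ratio but from unlike starting levels. Its gene spans chr12:7055631-7070479 on build hg19, the build of the files. The DMSO libraries of SGC-CBP30 held 4.33 and 5.61 RPKM and the treated ones 2.47 and 1.7, a mean of 41.9% of DMSO. Those of the CPI203 experiment held 1.32 and 1.72 RPKM with DMSO and 0.725 and 0.434 with the compound, a mean of 38.2% of DMSO. No treated library overlapped its DMSO libraries. The log2 fold change was -1.23 (SE 0.261) with SGC-CBP30 and -1.27 (SE 0.261) with CPI203, and the difference of the 2 effects was 0.05 (SE 0.369).

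The replicates of PTPN6 were spread widely. Same-numbered libraries had log2 ratios of -0.79 and -1.67 for SGC-CBP30, and of -0.78 and -1.76 for CPI203. PTPN6 also differed between the DMSO pairs, at 4.97 ± 0.903 RPKM (SD, n = 2) for SGC-CBP30 and 1.52 ± 0.283 RPKM (SD, n = 2) for CPI203, a log2 difference of -1.65 (SE 0.261), lower in both libraries than in both of the other pair. The libraries with SGC-CBP30 therefore overlapped the DMSO libraries of CPI203, with 1.7 RPKM for the lower of the former and 1.72 for the higher of the latter. With all 4 DMSO libraries taken as controls, the log2 fold change of PTPN6 with SGC-CBP30 was -0.40 in place of -1.23, and that with CPI203 was -2.1 in place of -1.27.

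INPP5D, the lipid phosphatase, lay between 0.0159 and 0.276 RPKM. It was at 0.276 and 0.205 RPKM with DMSO against 0.05 and 0.196 with SGC-CBP30, and at 0.0894 and 0.0938 with DMSO against 0.0212 and 0.0159 with CPI203. Treated libraries lay below DMSO in both experiments, though by a narrow margin for 1 SGC-CBP30 library. The CPI203 values rest on about 3 and 2 reads. The fitted log2 fold changes were -0.68 with SGC-CBP30 and -0.69 with CPI203 (SE 0.333 for each).

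**Figure D2:**
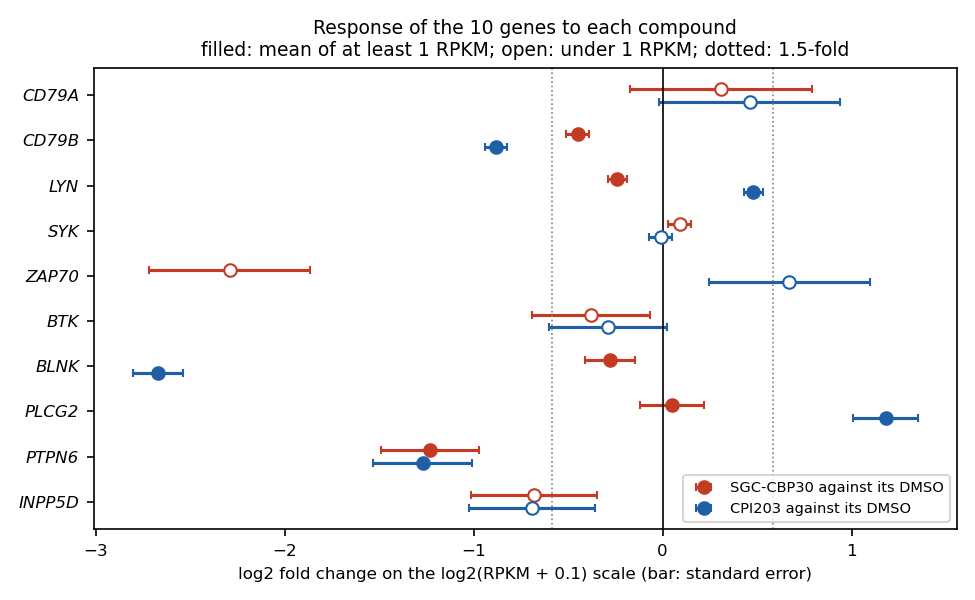
Fitted log2 fold change of each gene (horizontal axis, log2(RPKM + 0.1) scale) with SGC-CBP30 (red) and CPI203 (blue), each against its own DMSO, with bars of 1 standard error. Filled points are genes averaging at least 1 RPKM, open points are genes under it, and dotted lines mark 1.5-fold. PTPN6 lies near -1.2 with both compounds, BLNK at -2.67 and PLCG2 at 1.18 with CPI203, and ZAP70 at -2.29 with SGC-CBP30.

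Genes with an adjusted p under 0.05 and at least 1.5-fold are termed called here. They made up 7.26% of all genes tested with SGC-CBP30 and 27.8% with CPI203. No call is given for the members, whose differences with the compounds carry no test. The genes called in the whole table came to 511 higher and 559 lower with SGC-CBP30, or 340 and 709 once the libraries had been brought to a common median. Over all 10 members, both treated libraries lay below both DMSO libraries in 7 with SGC-CBP30 and in 4 with CPI203, and above them in 1 and 4. Among the 5 members tested, they lay below in 4 and above in 0 with SGC-CBP30, and below in 3 and above in 2 with CPI203. For all genes tested those shares were 27.2% below and 45.9% above with SGC-CBP30, and 41.7% below and 39.2% above with CPI203. For SGC-CBP30 the median log2 fold change of those 5 members was -0.28, and for CPI203 it was -0.88, beside 0.0704 and -0.015 over all genes tested. As the members were chosen with these contrasts in view, nothing is read from these counts and medians.

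The comparison of the DMSO pairs uses libraries of the contrasts by which the members were chosen, so the members' differences in it are a description as well. By the same thresholds, 7.84% of all genes tested were called between the DMSO pairs, and no call is given for the members. What differed between the experiments besides the library series is not given in the sources used here, so the experiment, its cells and its library preparation cannot be told apart.

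The genes whose log2 levels followed those of PTPN6 most closely over the 8 libraries were CTC-471F3.4 (Pearson r of 0.984), RP5-894A10.6 (0.983), FAM132B (0.982), TAP2 (0.981) and ELAVL1 (0.981). TAP2, a subunit of the peptide transporter of antigen presentation, had group means of 9.5 RPKM with DMSO and 6.01 with SGC-CBP30, and of 5.45 with DMSO and 3.62 with CPI203, the same order of groups as PTPN6. For ZAP70 they included U47924.31 (0.985), AC074289.1 (0.974), CPNE2 (0.973) and P4HA2 (0.972). CPNE2, a calcium-dependent lipid-binding protein of the copine family, had group means of 6.33 RPKM with DMSO and 4.94 with SGC-CBP30, and of 4.3 with DMSO and 4.78 with CPI203. The points of these correlations share libraries and the difference between experiments, and they are given as a description.

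A list of 98 further genes of the pathway, ordered by role, was then examined, of which 63 were tested and 32 stayed under 1 RPKM. With SGC-CBP30, 13 of the 63 (20.6%) were called and all 13 were lower, beside 3.79% of all genes called lower and 3.47% called higher. With CPI203, 26 (41.3%) were called, 12 higher and 14 lower, beside 13.4% and 14.4% of all genes. The median log2 fold change of the 63 was -0.14 with SGC-CBP30 and 0.04 with CPI203. The list was drawn up with earlier results of these data known, so its shares are a description and are not evidence about the pathway as a whole. The 13 and the 26 had 7 genes in common, all lower with both compounds, which is 53.8% of the former and 26.9% of the latter. The same overlap was not counted over all genes tested, so nothing is read from it.

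Among the coreceptors, CD81, a tetraspanin of the coreceptor complex, fell with SGC-CBP30. It was at 5.48 and 6.56 RPKM with DMSO and at 1.45 and 1.13 with SGC-CBP30 (log2 fold change -2.14, SE 0.217, limma adjusted p of 9.15e-05). The CPI203 experiment gave 1.06 and 1.43 RPKM with DMSO and 1.02 and 0.738 with CPI203, which did not pass the test (adjusted p of 0.0883). The effects of the 2 treatments on CD81 differed by -1.68 on the log2 scale (adjusted p of 0.00138), and its level in the DMSO pairs, which enter that difference, differed by -2.19 (adjusted p of 6.71e-05). CR2, the complement receptor of the same complex, fell with CPI203 (-0.62, adjusted p of 0.00876). CR2 kept that call in 12 of 17 settings, and lost it without the second DMSO library (-0.52, adjusted p of 0.0603) and without the second CPI203 library (-0.56, adjusted p of 0.0428, under 1.5-fold).

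Of 9 inhibitory receptors 2 were tested. LAIR1, a collagen receptor that recruits PTPN6, fell with both compounds, from 5.92 and 6.73 RPKM to 1.68 and 2.28 with SGC-CBP30 (log2 fold change -1.64, adjusted p of 0.00021) and from 2.36 and 2.91 to 0.315 and 0.256 with CPI203 (-2.82, adjusted p of 1.08e-06). Its DMSO level was lower in the CPI203 experiment (-1.23, adjusted p of 0.000876). CD72, another receptor that recruits PTPN6, rose with CPI203 (1.09, adjusted p of 0.00306).

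Among the other kinases, BLK, a SRC family kinase of B cells, fell from 10.2 and 9.36 RPKM to 2.96 and 3.16 with SGC-CBP30 (log2 fold change -1.64, adjusted p of 7.73e-05) and from 2.67 and 2.65 to 0.579 and 0.853 with CPI203 (-1.78, adjusted p of 7.18e-06). CSK, which restrains LYN and its relatives, fell by 0.97 with SGC-CBP30 (adjusted p of 3.12e-06) and by 0.82 with CPI203 (adjusted p of 1.19e-06), both log2 values. TEC, a relative of BTK, fell by 1.17 with CPI203 (adjusted p of 5.91e-06), whereas FYN rose by 0.66 (adjusted p of 7.9e-06). At under 1.5-fold, TEC (-0.43, adjusted p of 0.00873) and FYN (-0.24, adjusted p of 0.012) were lower with SGC-CBP30. The DMSO level of TEC was higher in the CPI203 experiment (0.75, adjusted p of 0.000452). Of the 5 tested, 2 were called with SGC-CBP30 and 4 with CPI203, beside 7.26% and 27.8% of all genes.

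Of 15 adaptors and their partners tested, 5 were called with SGC-CBP30, all lower, beside 7.26% of all genes called. At under 1.5-fold, NCK1 was higher (log2 fold change 0.16, adjusted p of 0.0422). SH3KBP1 (-0.47, adjusted p of 5.68e-05) and GAB1 (-0.28, adjusted p of 0.0212) were lower at under 1.5-fold. The called genes were PIK3AP1 (BCAP, log2 fold change -1.30, adjusted p of 0.00038), VAV1 (-0.87, adjusted p of 9.29e-06), CBLB (-0.82, adjusted p of 0.00292), LAT (-0.70, adjusted p of 0.00731) and RAC2 (-0.66, adjusted p of 6.43e-06). With CPI203, PIK3AP1 (-1.96, adjusted p of 5.18e-06), SH3BP2 (-1.81, adjusted p of 1.68e-07) and LAT (-0.65, adjusted p of 0.00519) were called lower. At under 1.5-fold, VAV1 (-0.45, adjusted p of 0.000114) and RAC2 (-0.22, adjusted p of 0.00128) were lower with CPI203 and CBLB was higher (0.50, adjusted p of 0.0185). PAG1, a membrane adaptor that holds CSK, rose from 0.831 and 0.599 RPKM to 5.34 and 5.18 with CPI203 (2.73, adjusted p of 6.73e-06), and CBL (0.64, adjusted p of 0.000153) and SOS1 (0.63, adjusted p of 5.62e-05) rose as well. LAT was called in 13 of 17 settings with SGC-CBP30, not without the first DMSO library (-0.55, adjusted p of 0.0608) or the second SGC-CBP30 library (-0.63, adjusted p of 0.0571), and in 14 of 17 with CPI203, not without the first DMSO library (-0.48, adjusted p of 0.0446, under 1.5-fold). For CBLB, a ubiquitin ligase, the effects of the 2 treatments differed by -1.32 (adjusted p of 0.000842).

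**Figure D3:**
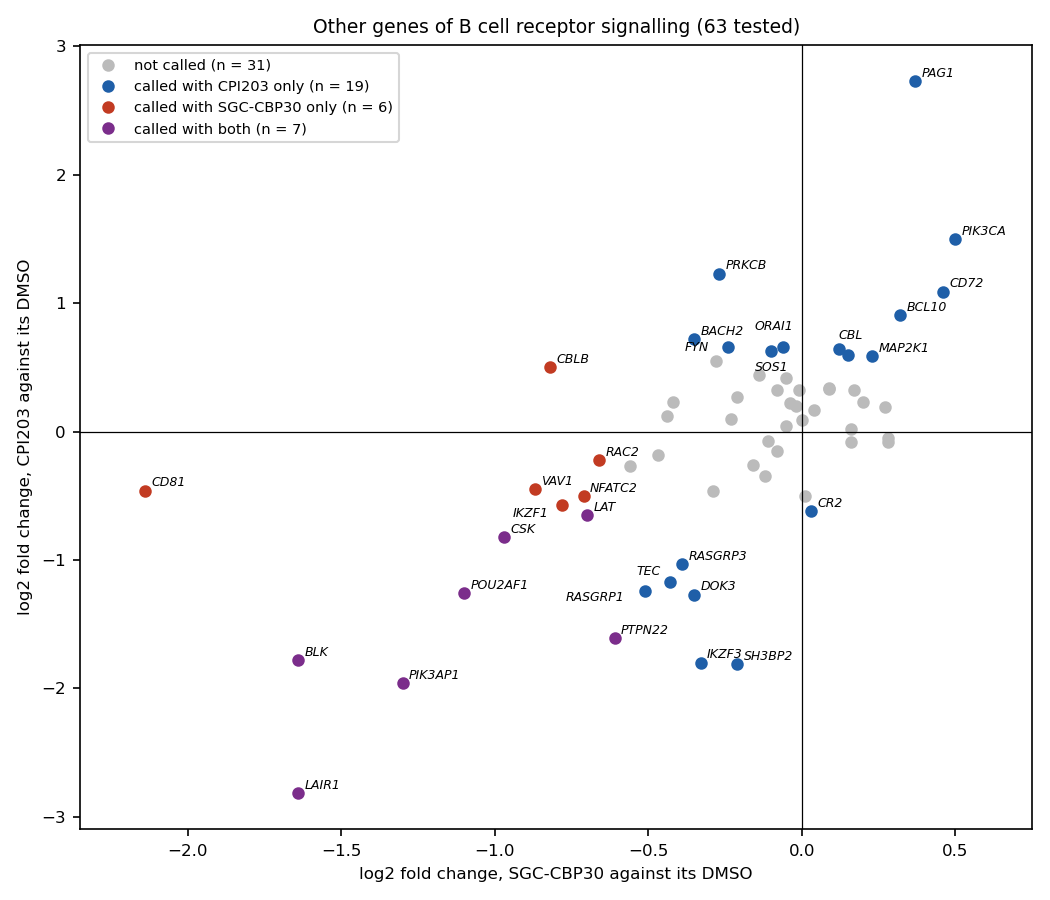
Log2 fold change of the 63 further pathway genes tested with SGC-CBP30 (horizontal axis) and with CPI203 (vertical axis), each against its own DMSO, coloured by which comparison called them, with symbols beside the called genes that the text names. The 13 genes called with SGC-CBP30 lie left of 0, and 7 of them are also called with CPI203 and lie below 0.

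PIK3CA, a catalytic subunit of PI3 kinase, rose from 7.6 and 7.24 RPKM to 21.1 and 21.1 with CPI203 (log2 fold change 1.5, adjusted p of 1.07e-07). That was the only call with either compound among the 6 tested of the PI3K and AKT group. PIK3CA was higher with SGC-CBP30 as well, at under 1.5-fold (0.5, adjusted p of 0.000551). Of 10 calcium and NFAT genes tested, NFATC2 fell with SGC-CBP30 (-0.71, adjusted p of 7.2e-05) and the calcium channel ORAI1 rose with CPI203 (0.66, adjusted p of 0.000122). NFATC2 was lower with CPI203 as well, at under 1.5-fold (-0.50, adjusted p of 0.000125). In the diacylglycerol and RAS group no gene was called with SGC-CBP30, although 2 of its 10 tested were higher and 2 lower with an adjusted p under 0.05 at under 1.5-fold, a threshold on p alone that 40.4% of all genes passed. With CPI203, PRKCB (1.23, adjusted p of 0.00302), BCL10 (0.91, adjusted p of 1.98e-05) and MAP2K1 (0.59, adjusted p of 9.43e-07) of that group rose. RASGRP1 (-1.24, adjusted p of 9.25e-05) and RASGRP3 (-1.03, adjusted p of 2.6e-06), which load RAS, fell. Of all genes tested, 7.26% were called with SGC-CBP30 and 27.8% with CPI203. Nothing is read from the counts of these role groups, each of 10 or fewer genes tested.

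Among the other phosphatases and brakes, PTPN22 was called with both compounds. It was at 8.75 and 9.69 RPKM with DMSO and at 5.84 and 6.14 with SGC-CBP30 (log2 fold change -0.61, adjusted p of 0.00188), and at 8.57 and 10.2 with DMSO and 3.17 and 2.82 with CPI203 (-1.61, adjusted p of 9.58e-07). The fall was larger with CPI203, by 1.00 on the log2 scale (adjusted p of 0.000453). Its call with SGC-CBP30 was lost without the second DMSO library (-0.54) and without the first SGC-CBP30 library (-0.58), both under 1.5-fold. DOK3, an adaptor that recruits INPP5D, fell with CPI203 (-1.27, adjusted p of 0.000235).

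Of the B lineage regulators, POU2AF1, the coactivator OCA-B, fell with each compound. It was at 81.9 and 86.2 RPKM with DMSO and 40.6 and 37.7 with SGC-CBP30 (log2 fold change -1.10, adjusted p of 5.39e-07), and at 76.6 and 75.3 with DMSO and 31.1 and 32.0 with CPI203 (-1.26, adjusted p of 3.52e-08). The difference of 0.16 between its 2 effects did not pass the test (adjusted p of 0.0687). IKZF1 was called with SGC-CBP30 (-0.78, adjusted p of 3.02e-05) and was lower with CPI203 at under 1.5-fold (-0.57, adjusted p of 3.81e-05). IKZF3 was called with CPI203 (-1.80, adjusted p of 4.4e-07) and was lower with SGC-CBP30 at under 1.5-fold (-0.33, adjusted p of 0.033). BACH2 rose with CPI203 (0.72, adjusted p of 0.000143) and was lower with SGC-CBP30 at under 1.5-fold (-0.35, adjusted p of 0.0205). For IKZF3 the effects of the 2 treatments differed by 1.47 (adjusted p of 3.53e-05), and for IKZF1 the difference of -0.21 did not pass the test (adjusted p of 0.0863).

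**Figure D4:**
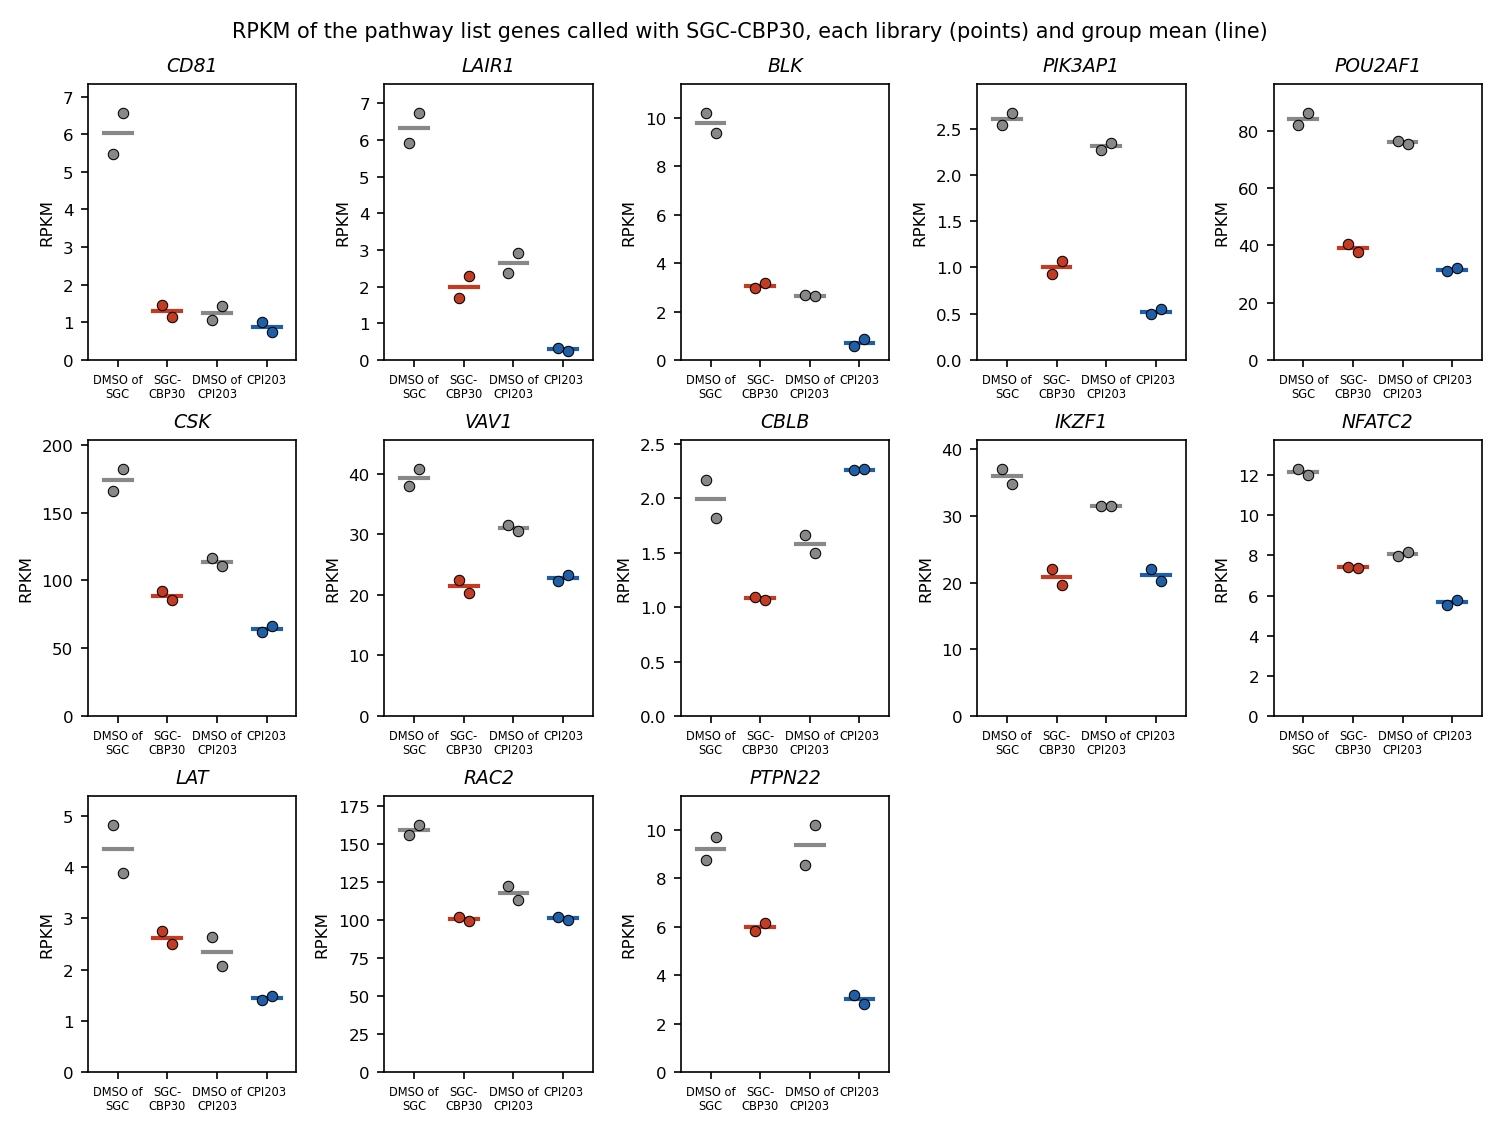
Level in RPKM (vertical axis, from 0, a separate scale per gene) of the 13 pathway genes called with SGC-CBP30, in the 4 groups. Points are the 2 libraries of a group and the line is their mean. In each panel both SGC-CBP30 libraries lie below both of their DMSO libraries, and the level in the DMSO libraries of CPI203 stands beside them.

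Between the DMSO pairs, 8 of the 63 genes were called lower and 2 higher in the CPI203 experiment, beside 3.91% and 3.93% of all genes. That comparison and the one of SGC-CBP30 share the DMSO libraries of SGC-CBP30, so their values are given side by side for the 5 genes that fell most with SGC-CBP30. CD81 had a log2 difference of -2.14 with SGC-CBP30 and of -2.19 between the DMSO pairs. LAIR1 had -1.64 and -1.23, and BLK had -1.64 and -1.84. PIK3AP1 had -1.30 and -0.17, and POU2AF1 had -1.10 and -0.15. Of the 13 genes called with SGC-CBP30, 6 were also called lower between the DMSO pairs. They were CD81, LAIR1, BLK, CSK (-0.97 and -0.61), LAT (-0.70 and -0.86) and NFATC2 (-0.71 and -0.59). At under 1.5-fold, RAC2, VAV1, POU2AF1 and IKZF1 were lower between the DMSO pairs with an adjusted p under 0.05. PIK3AP1, CBLB and PTPN22 did not pass. This overlap was not counted over all genes tested, so nothing is read from it. With all 4 DMSO libraries as controls, 6 genes of the list were called with SGC-CBP30 in place of 13.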

How the data were processed

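RNA was made by the authors from LP-1 cells with on-column DNase digestion and sequenced by a provider, and the authors deposited 1 RPKM value per gene and library (reads per kilobase, scaled to mapped reads). TopHat 1.4.1, Cufflinks and build hg19 are named in the submitters' processing notes. Of 63129 rows, 27 had a missing value and were left out, and 24 further library columns of the table were not used. Which DMSO pair belongs to which compound was taken from the library naming in the labels.

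Values were converted to log2(RPKM + 0.1), and the 14732 genes averaging 1 RPKM or more were tested with limma 3.58.1 in R 4.3.3 (lmFit on 4 group means, eBayes with an intensity trend, 4 residual and 5.48 prior degrees of freedom), with Benjamini-Hochberg adjustment. A gene was called at an adjusted p under 0.05 and at least 1.5-fold. Genes under 1 RPKM were fitted without the minimum. The method was tested on simulated data. Tables were made with pandas 2.3.3 and numpy 2.4.6 in Python 3.11.15.

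Depth was estimated from genes of 1 transcript of at least 800 bases in GENCODE release 29, where low values (under 0.5 RPKM) step by single reads. Between 50.0% and 73.1% of these values were within 0.1 read of a whole number, so read numbers are approximate and no count test was run. Intervals from counting were not given.

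The members and lists were chosen with earlier results of these data known, and the motifs after the expression values were seen. All 10 members were named, with every pathway gene called with either compound (up to 6 per role and compound) and the 5 genes most correlated with PTPN6 and with ZAP70. A few genes that this rule names are not reported here. PIK3R2 and SPIB, each on 2 overlapping rows, and PECAM1, on no chromosome row, were left out of the 98 listed. This exclusion was made after the rows were seen. Alternatives covered the pseudocount, filter, scaling, controls, replicate block, separate fits, trend and each library left out.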

Additional observations from a re-analysis of the deposited data

How the results depend on the processing

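Each group has 2 libraries, so leaving 1 out assumes that the lone library varies like the others, and genes near 1 RPKM are limited by depth. Genes called with SGC-CBP30 went from 1070 to 667 with a pseudocount of 1, to 505 when genes had to average 5 RPKM, and to 516 with all 4 DMSO libraries as controls. Under that minimum of 5 RPKM, which leaves 10544 genes to test, the calls also went from 4095 to 2590 with CPI203, from 3609 to 2358 for the difference between the compound effects, from 1155 to 518 between the DMSO pairs, and in the pathway list from 13 to 7 with SGC-CBP30 and from 26 to 13 with CPI203. All 4 DMSO libraries as controls left 6 of the pathway list called with SGC-CBP30. The cause of the changes under the pseudocount and the controls was not tested. Leaving out 1 library at a time gave 902 to 1079 calls with SGC-CBP30, 4033 to 4160 with CPI203, 3311 to 3612 for the difference, 1060 to 1250 between the DMSO pairs, 12 to 13 and 23 to 26 in the list. The share of calls that were higher went from 47.8% to 32.4% with SGC-CBP30 under median scaling and under quantile normalization, and from 60.5% to 51.8% and 50.2% for the difference. As a description, the log2 fold change of PTPN6 ranged from -1.48 to -0.40 with SGC-CBP30 and from -2.1 to -0.67 with CPI203 over these settings. Of the pathway genes called, 4 of 13 with SGC-CBP30 and 19 of 26 with CPI203 were called in every setting that tested them, and none changed direction. With all 4 DMSO libraries as controls BLK, CD81, CSK, LAIR1, LAT, NFATC2 and RAC2 lost the call with SGC-CBP30, and with a pseudocount of 1 CBLB, LAT and PTPN22 did. With CPI203, fold changes under 1.5-fold were found for CBL (0.57), SOS1 (0.55) and MAP2K1 (0.57) without the first DMSO library, for ORAI1 (0.51) without the second, and for MAP2K1 (0.57) without the first CPI203 library. ZAP70 and the other 4 members under 1 RPKM were fitted in 1 setting, without the filter. The other counts, 90 in all, stayed within 1.5 times the value reported.

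Same-numbered libraries shared no replicate effect visible over genes (correlation of their deviations -0.0963 in the SGC-CBP30 experiment and 0.00863 in that of CPI203). The paper describes paired DMSO controls, and these correlations cannot show whether the libraries were paired. With the replicate number as a block, the calls were 1057 with SGC-CBP30, 4120 with CPI203, 3573 for the difference and 1167 between the DMSO pairs, and 13 and 26 in the pathway list.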
